A study of Mus musculus with 27 samples.

Results

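Immediate early genes are transcribed within minutes of a stimulus, without new protein synthesis, from promoters that are already bound by factors such as SRF, its ternary complex partners and CREB, which MAP kinases, calcium and cyclic AMP activate. Many of their proteins are transcription factors that drive a slower wave of genes, and contraction, stretch and injury are known to induce them in skeletal muscle. The 10 genes described here were Fos, Fosb, Jun, Junb, Egr1, Atf3, Myc, Ier2, Ier3 and Arc. They were chosen by name, in part since Arc, Atf3 and Egr1 were already known to be higher in the Smn1 knockout of these data, so the difference between the knockout and Wt is given for every member as a description with no test. Each member had 1 probe on the array, and all 10 passed the filter on low signal, among 16636 genes that did.

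Single myofibers of the tibialis anterior (TA) muscle of male mice were profiled on 27 Agilent arrays, with 1 myofiber per array. The 8 Wt myofibers came from 2 mice, the 12 Smn1ΔSkm myofibers from 3 mice and the 7 myofibers of AFS-treated Smn1ΔSkm mice from 2 mice. In Smn1ΔSkm (Smn1deltaSKM) mice the floxed exon of the Smn F7 allele is deleted by Cre recombinase under the human α-skeletal actin promoter, so the deletion is limited to skeletal muscle fibers and other cells keep the gene. The AFS mice carried the same deletion and had received c-kit+ GFP+ amniotic fluid stem cells by the tail vein. For the AFS group the study text counts its myofibers and mice differently, and the labels were followed here, so the number of mice behind every AFS test rests on the labels. The labels give an age of 3 months for all groups, whereas the methods place the injection at that age and the sampling a month later. All muscles were digested with collagenase before the fibers were picked, and the RNA of each fiber was amplified.

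Values are log2 of the background-corrected signal above the 75th percentile of the same array, so 0 is the level of that percentile, and levels of different probes are not compared. Group means are means of mice ± SD. Between 23864 and 34001 probes had a value on a Wt array, 23170 to 37580 on a Smn1ΔSkm array and 25868 to 30478 on an AFS array. A single slide held every Wt array and no array of another group, and it was scanned separately, so genotype and batch cannot be told apart in either comparison with Wt. One of the probes for Smn1 lay at 1.87 and 1.83 in the Wt mice, at -0.06 to 0.34 in the Smn1ΔSkm mice and at -0.34 and 0.82 in the AFS mice, while the other overlapped between the groups. Whether these probes lie in the deleted exon was not determined. Of 12 myofiber markers, 11 had values on at least 75% of the arrays of each group.

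Arc, Atf3, Egr1 and Myc showed the widest gaps between Smn1ΔSkm and Wt myofibers. Arc encodes a cytoskeletal protein of neuronal synapses with a capsid-like fold (probe at chr15:74499592-74499651, build mm9). It had a value on 7 of 8 Wt arrays, where it ran from -1.80 to 0.51 with a median of -0.84. In Smn1ΔSkm it ran from 1.87 to 5.40 with a median of 3.80. No Smn1ΔSkm myofiber reached down to the Wt range. The mouse means were -0.68 ± 0.84 (SD, n = 2) in Wt and 3.63 ± 0.34 (SD, n = 3) in Smn1ΔSkm, a difference of 4.31 (SE 0.65), or 19.9-fold. The difference was 3.61 with normexp, 3.72 without Wt mouse 1 and 4.91 without Wt mouse 2.

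Myc, the transcription factor that pairs with Max and promotes growth and ribosome production, was likewise separate (chr15:61821417-61821476). Its values ran from -2.38 to -0.95 with a median of -1.90 on the 7 Wt arrays that gave one, and from 0.06 to 3.60 with a median of 1.77 in Smn1ΔSkm. The lowest Smn1ΔSkm myofiber therefore lay above the highest Wt myofiber. The mouse means differed by 3.44 (SE 0.88), from -1.71 ± 0.13 (SD, n = 2) to 1.72 ± 1.04 (SD, n = 3). With normexp they differed by 2.33.

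Atf3 encodes a bZIP factor of the ATF family that is induced by many stresses (chr1:192994547-192994606). It ran from 0.41 to 3.34 with a median of 1.44 in Wt, and from 2.77 to 5.37 with a median of 4.56 in Smn1ΔSkm. The ranges overlapped through 1 Wt myofiber, number 7, at 3.34. The mouse means were 1.53 ± 0.31 (SD, n = 2) and 4.39 ± 0.82 (SD, n = 3), a difference of 2.85 (SE 0.45), or 7.23-fold.

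Egr1, a zinc finger factor that SRF and its partners switch on, ran from 1.91 to 4.92 with a median of 3.14 in Wt and from 3.59 to 7.01 with a median of 5.96 in Smn1ΔSkm. Here the overlap came from Wt myofibers 1 and 7, at 4.92 and 4.71, and from Smn1ΔSkm myofibers 2 to 4 of mouse 1, at 3.59 to 4.78. The mouse means were 3.33 ± 0.02 (SD, n = 2) and 5.70 ± 0.99 (SD, n = 3), and they differed by 2.37 (SE 0.50), or 5.19-fold.

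**Figure D1:**
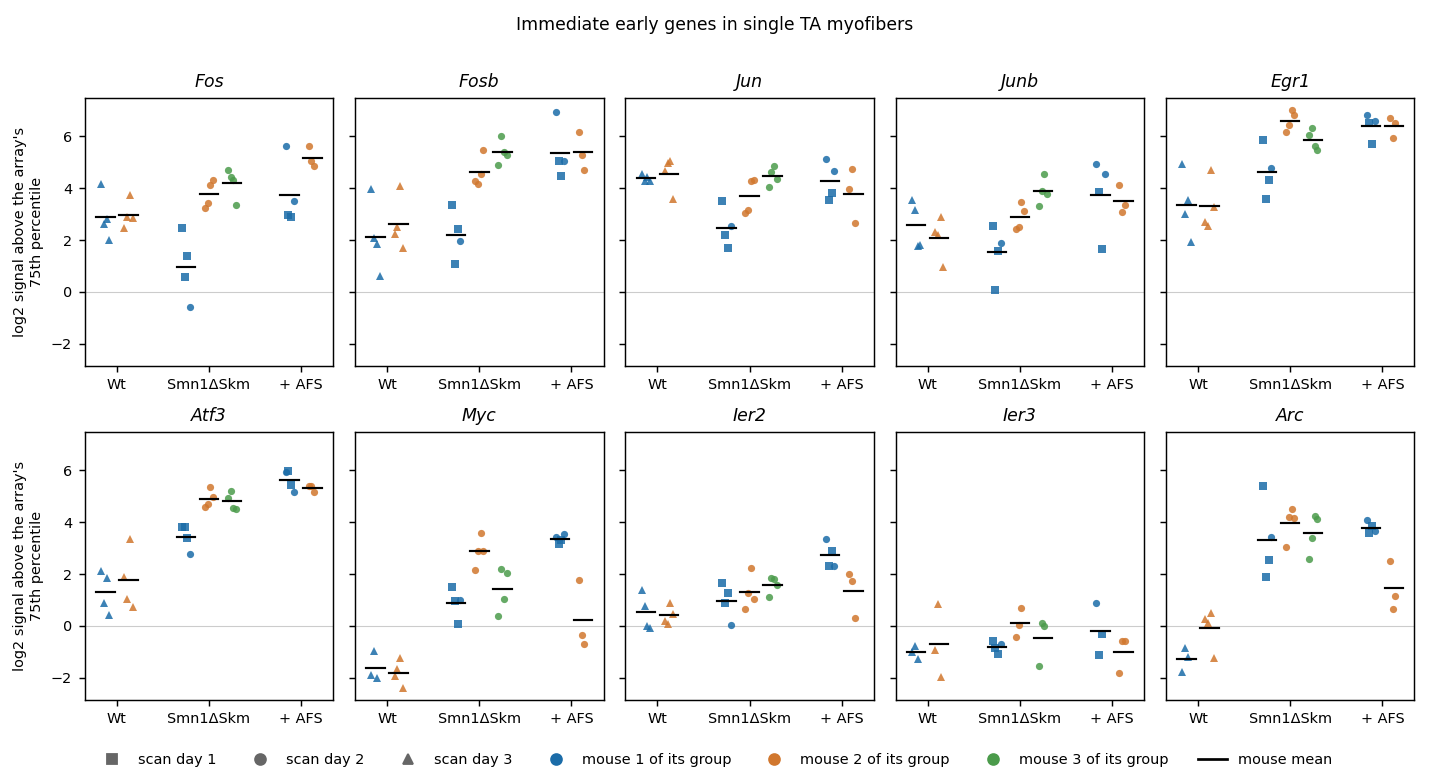
Log2 signal above the array's 75th percentile (vertical axis) of each of the 10 genes in single myofibers of the 3 groups. Points are myofibers, colours are the mice of a group, shapes are scan days and bars are mouse means. Arc and Myc of Wt lie below all other groups' myofibers, and the mean of Smn1ΔSkm mouse 1 is the lowest of its group for all 10 genes. The share of all genes with that order of the mice was not taken.

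The AP-1 genes were not alike. AP-1 is a dimer of a Fos and a Jun protein, or of 2 Jun proteins, and binds the sequence TGANTCA. Fosb (chr7:19888168-19888227) was 1.70 higher in Smn1ΔSkm (SE 0.79), with mouse means of 2.37 ± 0.36 (SD, n = 2) in Wt and 4.07 ± 1.66 (SD, n = 3) in Smn1ΔSkm. Fos (chr12:86817900-86817959) differed by 0.05 (SE 0.88). Jun (chr4:94716928-94716987) was the member that lay lower, at 4.47 ± 0.13 (SD, n = 2) in Wt and 3.55 ± 1.00 (SD, n = 3) in Smn1ΔSkm, a difference of -0.92 (SE 0.52). Junb (chr8:87501881-87501940), which can hold back Jun activity, differed by 0.44 (SE 0.60).

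Within Smn1ΔSkm, mouse 1 had the lowest mean of the 3 mice for all 10 genes. The share of all genes with this order was not taken, so nothing is read from the count. The arrays of mouse 1 gave values for 23170 to 27996 probes, against 30919 to 37580 on those of mice 2 and 3. Fos averaged 0.97 in mouse 1, against 3.77 in mouse 2 and 4.20 in mouse 3, with both Wt mice between them at 2.89 and 2.98. Fosb averaged 2.21 in mouse 1, 4.61 in mouse 2 and 5.39 in mouse 3. Egr1 averaged 4.64, 6.60 and 5.87, and Atf3 3.45, 4.91 and 4.80. Jun lay at 2.48 in mouse 1 and Junb at 1.52. Of its 4 myofibers, numbers 1 to 3 were scanned on another day than the rest of the group. Number 4 was scanned on the same day as the rest and held the lowest Fos value of all 27 myofibers, -0.59. None of the 4 shared a slide with mice 2 and 3, so mouse and slide cannot be told apart here. Without Smn1ΔSkm mouse 1 the difference from Wt was 1.05 for Fos, 1.06 for Junb, 2.63 for Fosb and -0.39 for Jun. The direction of the Fos difference also turned under other settings, to -0.79 with slide as a random block and to -0.47 without Smn1ΔSkm myofibers 1 to 3, a choice made after the data were seen.

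Ier2 and Ier3, short-lived products of the same response, differed least beside Fos and Junb. Ier2, a nuclear protein (chr8:87186214-87186273), ran from -0.08 to 1.40 in Wt and from 0.03 to 2.23 in Smn1ΔSkm, with mouse means of 0.46 ± 0.08 (SD, n = 2) and 1.28 ± 0.32 (SD, n = 3). Ier3, which is linked to cell survival (chr17:35959528-35959587), had values on 6 of 8 Wt and 10 of 12 Smn1ΔSkm arrays. It ran from -1.97 to 0.84 in Wt and from -1.56 to 0.70 in Smn1ΔSkm, and the mouse means differed by 0.45 (SE 0.37). Both genes overlapped widely between the groups at the level of the myofiber. The reference table used here is of another build than the probes, so no exon was assigned to them.

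Over the members, 9 of 10 differences between Smn1ΔSkm and Wt were above 0, with a median of 1.26, beside a median of -0.12 over all genes tested. Another scaling moved that median over all genes, to 0.10 when arrays were centred on the probes detected everywhere, and no member's direction turned with any of the 4 other scalings, although Arc and Myc were smaller with normexp, as given above. In 5 members, Egr1, Atf3, Myc, Ier2 and Arc, every Smn1ΔSkm mouse lay above both Wt mice, and 22.3% of all genes with values in every mouse were placed in this way. In Myc and Arc every myofiber was so placed, against 3.91% of all genes. Since the members were partly chosen on this contrast, nothing is read from these counts.

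The median sums of fibroblast markers differed between the groups, while their ranges overlapped. Of the 5 fibroblast markers, Col1a1, Col3a1, Dcn and Lum gave values on some arrays and Pdgfra on none. Their summed signal ran from -1.83 to 5.94 on the log2 scale in Wt with a median of -0.72, from -1.04 to 4.35 in Smn1ΔSkm with a median of 2.39, and from -1.45 to 4.04 in AFS mice with a median of 3.01. Wt myofiber 7, which was high for Egr1, Fosb and Atf3, had the highest sum of all. Smn1ΔSkm myofibers 9 to 11, from mouse 3, had sums of -1.04 to 0.25, and there Arc lay at 2.58 to 4.25, Atf3 at 4.54 to 5.19 and Egr1 at 5.64 to 6.31. These 3 genes are the ones known to be higher when the members were chosen, so nothing is read from these values. The sums of the 6 macrophage and leukocyte markers overlapped, from 4.43 to 5.15 in Wt and from 4.29 to 5.07 in Smn1ΔSkm, as did those of the 5 endothelial markers, from 2.96 to 4.54 and from 3.53 to 4.26. The 4 satellite cell markers summed to -1.30 to 0.66 in Wt and -1.58 to 0.53 in Smn1ΔSkm, and Myf5 gave no value in any group. The 3 smooth muscle and pericyte markers ran from -1.03 to 3.98 with a median of -0.20 in Wt. In Smn1ΔSkm they ran from -0.22 to 2.22 with a median of 0.95. The 3 Schwann cell markers ran from -2.58 to 0.58 in Wt and from -1.44 to 1.38 in Smn1ΔSkm. The 2 adipocyte markers ran from -2.05 to -1.01 in Wt and from -0.998 to 0.31 in Smn1ΔSkm, so their ranges nearly met but did not overlap. In AFS mice the adipocyte sums ran from -1.17 to -0.53. The part of such cells in the members' levels was not tested, and fewer cells of a type cannot be told apart from less RNA per cell.

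The next comparison asked whether the members differed after AFS transplantation. It was tested by limma on the means of 2 AFS-treated and 3 untreated mice, and it shares the untreated Smn1ΔSkm arrays with the contrast on which members were chosen. A single slide held arrays of both groups, myofiber 4 of the untreated and myofiber 4 of the AFS-treated mice. Treatment and slide can therefore hardly be told apart here, also within a scan day. No member passed: 0 of 10 were called at an adjusted p under 0.05, beside 0 of 16636 genes (0%), of which 567 had an unadjusted p under 0.05. With myofibers as replicates 28 genes were called and again 0 members.

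Atf3 came nearest. Its 7 values in AFS mice ran from 5.17 to 5.97 with a median of 5.39, and the 12 values of untreated mice ran from 2.77 to 5.37. The mouse means of 5.63 and 5.32 in AFS lay above those of all 3 untreated mice, at 3.45, 4.91 and 4.80, a placing held by 12.9% of genes. The difference was 1.08 (SE 0.45, limma, unadjusted p = 0.042, adjusted p = 1.00). It was 2.04 within scan day 1, where each side had 1 mouse and its own slide, and 1.27 within scan day 2 (limma, adjusted p = 0.89).

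Fos and Fosb were 1.48 (SE 0.88) and 1.31 (SE 0.79) above the untreated group. Within scan day 1 these gaps were 1.44 and 2.47, and within scan day 2 they were 2.41 and 1.70. Leaving out untreated mouse 1, in which both were low, brought them to 0.48 and 0.38. Egr1 lay 0.70 above the untreated group (SE 0.50), Junb 0.87 (SE 0.60), Ier2 0.76 (SE 0.42) and Jun 0.48 (SE 0.52), while Ier3 lay 0.20 below it (a difference of -0.20, SE 0.37). None of these gaps was called by limma at an adjusted p under 0.05.

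Arc, Myc and Ier2 divided the AFS mice. In AFS mouse 1 the 4 myofibers held Arc at 3.59 to 4.09, Myc at 3.15 to 3.56 and Ier2 at 2.31 to 3.35. In AFS mouse 2 the 3 myofibers held Arc at 0.66 to 2.52, Myc at -0.68 to 1.78 and Ier2 at 0.31 to 1.99. The ranges of the mice did not overlap for these genes. The share of all genes with such a gap was not taken, and myofibers of a mouse are not replicates. The myofibers of AFS mouse 1 lay on several slides and 2 scan days, and its myofiber 1 shared the slide that held all those of mouse 2. The group difference from untreated Smn1ΔSkm was -1.01 for Arc (SE 0.65) and 0.08 for Myc (SE 0.88), and without AFS mouse 2 it was 0.16 for Arc, 1.65 for Myc and 1.44 for Ier2. The means of AFS mice 1 and 2 were 5.38 and 5.39 for Fosb, and 6.41 and 6.39 for Egr1.

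**Figure D2:**
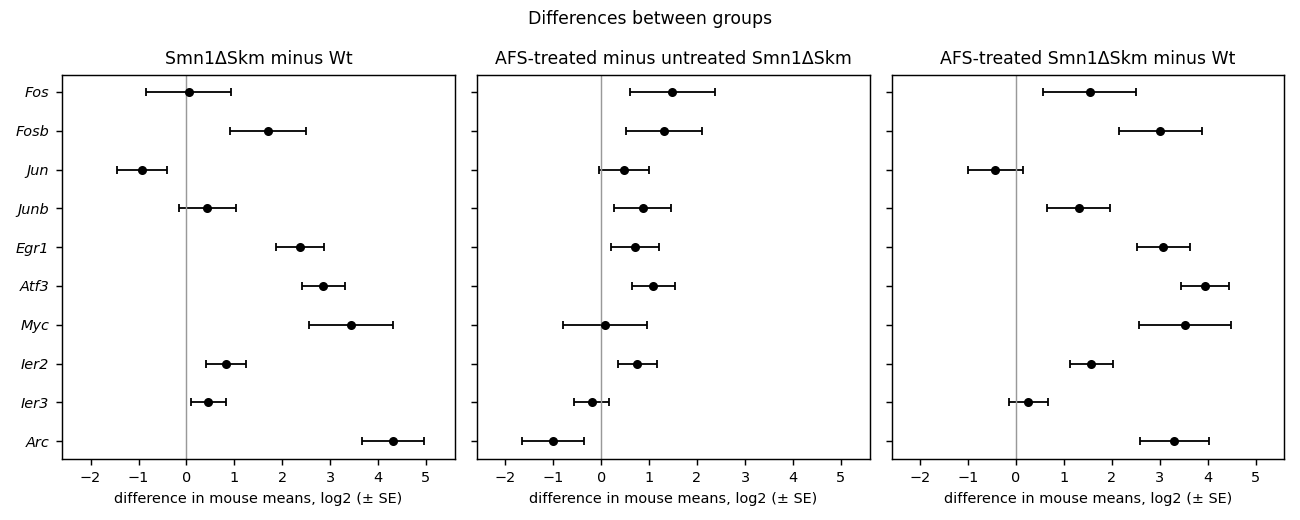
Differences between groups in mouse means of log2 signal (horizontal axis) with their standard errors (bars) for each of the 10 genes, in the 3 comparisons of 2 Wt, 3 Smn1ΔSkm and 2 AFS-treated mice. Arc differs most between Smn1ΔSkm and Wt, at 4.31, and Atf3 most between AFS-treated Smn1ΔSkm and Wt, at 3.94.

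Against Wt, whose arrays the choice of members also used, 3 of 10 members were called in the AFS-treated mice and all 3 were higher, beside 7.87% of all genes called in either direction and 3.53% called higher. They were Atf3, with a difference of 3.94 or 15.3-fold (SE 0.50, limma, adjusted p = 0.013), Egr1, with 3.07 or 8.42-fold (SE 0.55, limma, adjusted p = 0.025), and Arc, with 3.30 or 9.87-fold (SE 0.72, limma, adjusted p = 0.036). These 3 are the genes known to be higher in the knockout when the members were chosen. The test reuses the Wt arrays of that choice, so nothing is read from these calls or their share. Myc, at 3.52, Fosb, at 3.01, and Ier2, at 1.57, had adjusted p-values by limma of 0.060, 0.068 and 0.069. In 8 members both AFS mice lay above both Wt mice, as 31.7% of all genes did. Every AFS myofiber lay above every Wt myofiber for Fosb, Egr1, Atf3, Myc and Arc, a placing held by 7.18% of all genes. AFS myofibers 2 and 7, whose fibroblast markers summed to -1.09 and -1.45, held Atf3 at 5.97 and 5.18, Egr1 at 6.53 and 6.51 and Arc at 3.59 and 1.16. These are single myofibers and the same 3 chosen genes, so nothing is read from these values. The part of fibroblasts in them was not tested. Junb (1.31), Fos (1.53), Ier3 (0.25) and Jun (-0.44) did not pass, with adjusted p-values by limma from 0.22 to 0.70. Jun was again the member that lay lower, and both AFS mice were below both Wt mice, at 4.28 and 3.78 against 4.38 and 4.57, as were 36.1% of all genes.

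With 2 mice in each of these groups, the calls rested on each of them. Without Wt mouse 1, Wt mouse 2 or AFS mouse 1, 0 members were called, and Egr1, Atf3 and Arc then differed from Wt by 2.13 to 4.16. Without AFS mouse 2 the called members were Arc and Myc. Without untreated mouse 1, which enters only through the estimate of the spread, 8 were called, and the call of Arc was lost without untreated mouse 2 (limma, adjusted p = 0.052) or untreated mouse 3 (0.059). With normexp the calls of Egr1, at 2.97, and Arc, at 2.51, were lost (limma, adjusted p = 0.053 and 0.061).

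The members also moved together from one myofiber to the next within a mouse. After each mouse's mean was subtracted, which removes the differences between group means, Pearson's r was above 0 for all 45 pairs of members over the 21 to 27 myofibers with a value for both, with a median of 0.48 and a range from 0.16 (Fos and Myc) to 0.81 (Fosb and Egr1). These r are descriptions. The myofibers of Smn1ΔSkm mouse 1 and of AFS mouse 1 lay on several slides and 2 scan days, which the subtraction leaves in, each myofiber was amplified on its own, and the number of probes detected differed within mice. Fos, Fosb and Egr1 formed the closest trio, with r of 0.79 for Fos and Fosb and 0.67 for Fos and Egr1. In Wt their 3 pairs had r from 0.90 to 0.95 over 8 myofibers, in Smn1ΔSkm from 0.60 to 0.78 over 12, and in AFS mice from 0.61 to 0.95 over 7. Wt myofibers 1 and 7 held the highest values of their mice for all 3 genes, with Fosb at 3.97 and 4.10, against 0.59 to 2.49 in the other 6 Wt myofibers. Their fibroblast sums were -1.83 and 5.94, the lowest and the highest of Wt. Smn1ΔSkm myofiber 1, the highest of its mouse for the 3 genes, had the highest sum of its group, 4.35. The part of such cells in these r was not tested.

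Jun, the member that was lower in Smn1ΔSkm, still followed the others within mice, with r of 0.57 with Fosb and 0.56 with Junb. Myc followed Arc most closely, at 0.60. The mean of the members had an r of -0.50 with the number of probes detected on the array, so it was lower on arrays with more probes detected. With that relation removed from each gene, a step chosen after the data were seen, all 45 r stayed above 0. Their median was then 0.41 and the lowest was 0.044. Taken by group without this step, r was above 0 for 44 of 45 pairs in Wt, 43 in Smn1ΔSkm and 41 in AFS mice. The medians were 0.61, 0.49 and 0.40.

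For each member, r was taken with the mean of the other members, and for every other gene with the mean of all members. It was 0.88 for Fosb, 0.72 for Egr1, 0.71 for Junb, 0.70 for Fos and 0.48 for Myc, and above 0.5 for 9 of 10 members, beside 4.42% of other genes and a median of 0.09 over them. The genes whose pattern was most like that of the members were Pycard, an inflammasome adaptor (r = 0.81 over 22 myofibers), AA414768 (0.78, 27), Gins4, a part of the replicative helicase complex (0.77, 26), Kctd20 (0.75, 26), Hip1r, a clathrin and actin adaptor (0.75, 26), Arf4, a small GTPase of the Golgi (0.74, 27), Cry2, a clock repressor (0.735, 27), and Trib1, a pseudokinase (0.73, 27). The remaining 2 of the first 10 were probes with no gene symbol. For these 10, r with the number of probes detected lay between -0.64 and -0.27.

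The spread within mice was wide. The SD of a member among myofibers of a mouse had a median of 0.80, beside 0.44 over all genes, and lay above that median in all 10 members. It was 0.95 for Fosb, 0.90 for Junb and 0.88 for Fos, and 0.61 for Ier2 at the lower end.

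**Figure D3:**
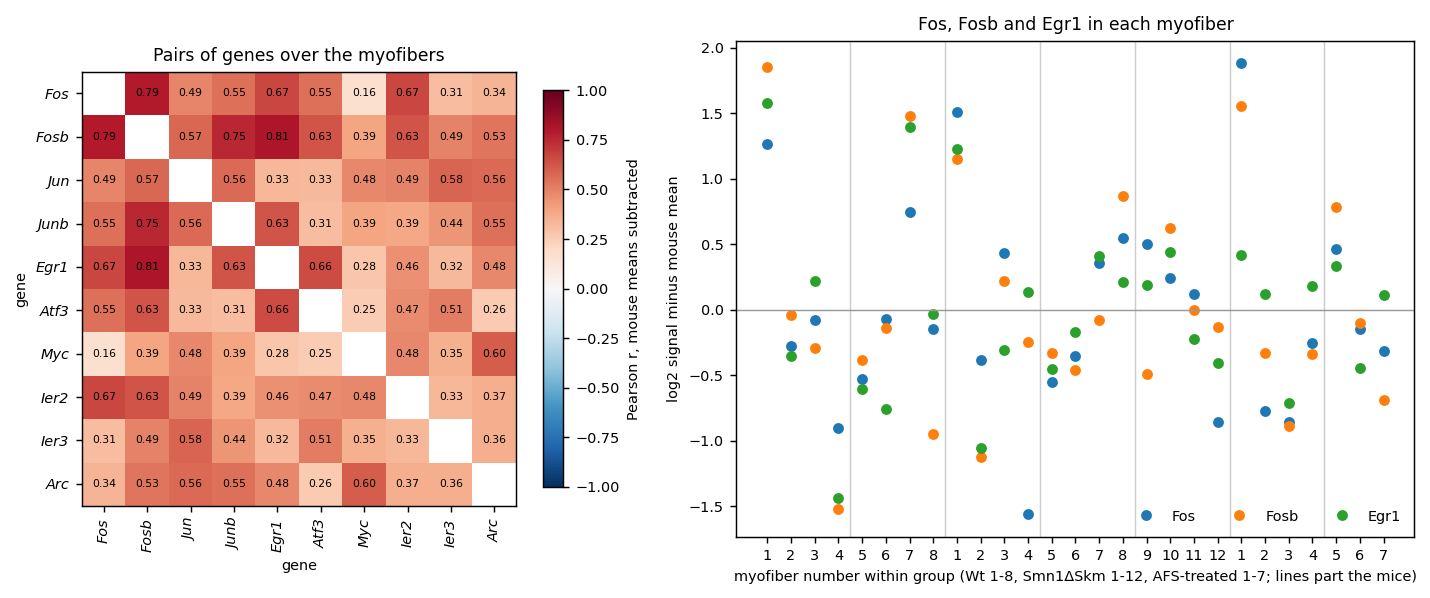
Left, Pearson's r between each pair of the 10 genes over the myofibers after the mouse means were subtracted (colour scale from -1 to 1). Right, log2 signal minus the mouse mean (vertical axis) of Fos, Fosb and Egr1 in each of the 27 myofibers (horizontal axis, grouped by mouse), in which the 3 genes are high together in Wt myofibers 1 and 7 and in Smn1ΔSkm myofiber 1. Of these, Wt myofiber 1 has the lowest fibroblast sum of Wt, at -1.83. Wt myofiber 7 and Smn1ΔSkm myofiber 1 have the highest sums of their groups, at 5.94 and 4.35. The part of such cells was not tested.

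Since these genes moved together, their promoters were read for shared short motifs. Of the 10 members, 6 had an entry in the RefSeq promoter table (GRCm38.p6), which covers 250 bases before to 50 bases after the start of each of 32851 entries. Arc, Egr1, Ier2 and Myc had no entry. The 150 bases before the start are shown 5′ to 3′ on the strand of the gene for Fos (chr12:85473740-85473889, plus strand), Fosb (chr7:19310046-19310195, minus strand), Junb (chr8:84978749-84978898, minus strand) and Atf3 (chr1:191183334-191183483, minus strand), which are the members that held a searched motif. Capitals mark TGACG on either strand, TATAAA and GCGNGGGCG.
Fos: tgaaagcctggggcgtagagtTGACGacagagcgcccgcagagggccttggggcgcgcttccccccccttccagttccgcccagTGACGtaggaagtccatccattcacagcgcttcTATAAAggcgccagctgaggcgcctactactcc
Fosb: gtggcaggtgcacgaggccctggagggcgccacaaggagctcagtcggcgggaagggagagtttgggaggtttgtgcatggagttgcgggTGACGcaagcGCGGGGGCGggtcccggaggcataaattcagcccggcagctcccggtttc
Junb: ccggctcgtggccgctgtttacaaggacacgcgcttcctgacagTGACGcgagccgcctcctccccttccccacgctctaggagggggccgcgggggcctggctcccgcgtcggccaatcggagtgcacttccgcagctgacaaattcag
Atf3: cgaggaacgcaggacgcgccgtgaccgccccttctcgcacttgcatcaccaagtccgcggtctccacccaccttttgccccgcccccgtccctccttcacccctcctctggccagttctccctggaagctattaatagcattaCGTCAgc

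The letters TGACG, the first bases of the cAMP response element TGACGTCA to which CREB and ATF proteins bind, stood in 4 of the 6 promoters, beside 20.8% of all promoters in the table. This short form was added after the sequences had been seen, so nothing is read from its share. Fos held it at bases -129 to -125 and -66 to -62, Fosb at -60 to -56, Junb at -106 to -102 and Atf3 at -7 to -3 on the opposite strand. The full TGACGTCA was in 0 of the 6 and in 1.79% of all promoters, the AP-1 motif TGANTCA in 0 and in 7.81%, and the CArG box of SRF in 0 and in 1.63%. TATAAA stood in Fos at -33 to -28 and in Junb at 1 to 6, after its start, and in 13.6% of all promoters. GCGNGGGCG, the motif of EGR proteins, stood in Fosb at -50 to -42, overlapping no other match, and in 5.55% of all promoters. Both strands were searched, and these matches describe letters in this window, not binding. Sites outside the window and the promoters of Arc, Egr1, Ier2 and Myc were not searched, so the members cannot be said to lack a motif.

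Other genes of the same response were read from lists of pathway genes. Of 19 other immediate early transcription factors 13 were tested, and 6 rose in Smn1ΔSkm against Wt by limma while 0 fell. Of all genes 8.11% were called higher and 14.5% lower. The largest of these rises was that of Klf6, a zinc finger factor (2.90, SE 0.44, limma, adjusted p = 0.0087), followed by Klf4 (2.45), the orphan nuclear receptor Nr4a3 (2.05), Npas4, best known from neurons (1.95), Ier5l (1.87) and the Fos relative Fosl2 (1.79). The list's median difference was 1.79 beside -0.12 over all genes, and 7 of the 13 did not pass.

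Effectors and feedback inhibitors went both ways. Of 34 listed genes 26 were tested, of which 5 rose and 2 fell, with a median difference of 0.43. The chemokine Cxcl1 rose by 4.00 (SE 0.32, limma, adjusted p = 0.0063), from -1.74 ± 0.58 (SD, n = 2) in Wt to 2.27 ± 0.23 (SD, n = 3) in Smn1ΔSkm. The MAP kinase phosphatase Dusp2 rose by 3.85, Hbegf, a ligand of the EGF receptor, by 2.52, Errfi1, an inhibitor of that receptor, by 2.26 and Mcl1, an inhibitor of cell death, by 1.67. Dusp6, the phosphatase of ERK, fell by 2.12, and Homer1 fell by 1.13.

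Genes upstream of the members went both ways. Of 26 kinases and SRF, ternary complex and CREB factors 24 were tested, with 7 called lower, 2 called higher and a median of -0.53. Those with the largest falls were the p38 kinase Mapk14 (-2.26), the ribosomal S6 kinase Rps6ka1 (-2.08), the SRF coactivator Mkl1 (-1.94) and Map2k4 (-1.56). Map2k7, an activator of JNK, rose by 1.91, and Crem, of the CREB family, rose by 1.50.

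Of 15 dimer partners of AP-1 and Myc proteins 9 were tested. Mafk, a small Maf protein, rose by 2.86 (SE 0.37, limma, adjusted p = 0.0066) and Maf fell by 1.97, and the median was -0.00064. Max, the partner of Myc, differed by -0.66 (limma, adjusted p = 0.27). Of 14 heat shock genes 13 were tested, and 1 of them, Hsp90ab1, fell by 1.10, with a median of -0.17 over the list. That call was lost in all 4 other scalings.

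**Figure D4:**
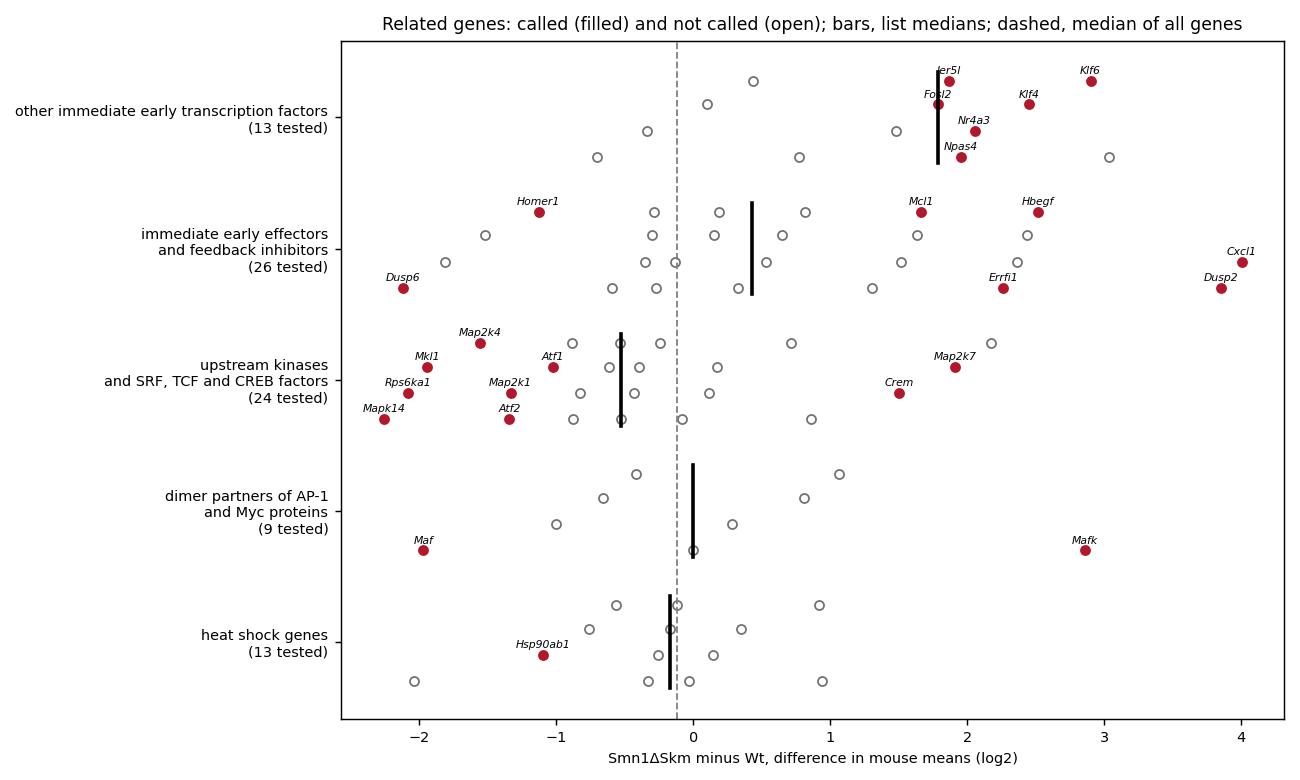
Difference between Smn1ΔSkm and Wt in mouse means of log2 signal (horizontal axis) for the tested genes of 5 lists related to the immediate early response. Filled points with names passed limma at an adjusted p under 0.05, open points did not, bars are list medians and the dashed line is the median of all genes at -0.12.

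Of all genes 8.11% were called higher in Smn1ΔSkm than in Wt and 14.5% lower. Across the first 4 of these lists limma called 24 of 72 genes, 14 higher and 10 lower. Without Wt mouse 1 it called 0 of them and without Wt mouse 2 it called 2, Cxcl1 and Npas4. Without Smn1ΔSkm mouse 1, 2 or 3 it called 43, 15 and 17. Among the genes named above, the calls of Errfi1, Homer1 and Crem were lost with quantile normalization, with and without normexp, and those of Klf4, Nr4a3, Ier5l, Mapk14 and Maf with normexp. The authors' values lost the calls of Nr4a3, Errfi1, Homer1 and Crem, the scaling to the median of probes detected on all arrays lost that of Homer1, and the mean of a gene's probes lost that of Map2k7. With slide as a random block the calls of Klf4, Nr4a3, Ier5l, Errfi1, Dusp6, Homer1, Map2k7 and Crem were lost. Between AFS-treated mice and Wt 7.87% of all genes were called in either direction and 3.53% were called higher. In the AFS-treated mice against Wt, 4 of the 13 other transcription factors were called and all 4 were higher, namely Fosl2 (2.04), Klf4 (3.08), Klf6 (2.65) and Npas4 (1.82). Of the 26 effectors, Cxcl1 (3.17), Hbegf (2.58) and Mcl1 (2.05) were called higher and Dusp6 (-1.60) lower. Of the 24 upstream genes 0 were called higher and 2 lower, Rps6ka1 (-1.57) and Atf2 (-1.27), and of the 9 dimer partners Mafk (3.42) was called higher. All of these calls were lost without Wt mouse 1, Wt mouse 2 or AFS mouse 1, and without AFS mouse 2 those of Klf6 and Cxcl1 held. With normexp the calls of Klf4, Hbegf, Dusp6 and Rps6ka1 were lost, while a random block for slide lost Klf4, Cxcl1, Dusp6, Rps6ka1 and Atf2. Dusp6 was also lost in the other 3 scalings, Rps6ka1 with quantile normalization and the authors' values, and Atf2 with the authors' values and with arrays centred on the probes detected everywhere. In AFS-treated against untreated Smn1ΔSkm mice 0 genes of any list were called.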

How the data were processed

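The RNA of each of the 27 myofibers was amplified and hybridized in 1 colour. The authors' scanner software (Agilent Feature Extraction 10.7.3.1, per the labels' processing notes) gave the deposited intensity of each spot, corrected for background and not scaled between arrays. The value table that the authors deposited holds intensity values made even between arrays, and it served as an alternative. Here log2 of the processed intensity was used, less the 75th percentile of its array. Spots not found, not well above background or marked as outliers gave no value. Repeated spots were averaged. A probe was kept if 75% of the arrays or more gave it a value, and a gene was represented by its brightest probe. The 7 mice, each the mean of its myofibers, were compared over the 3 groups in limma 3.58.1 (R 4.3.3), with Benjamini-Hochberg adjustment over 16636 genes and a threshold of 0.05. The fit was tested on simulated data. Probes carry the mm9 coordinates of the files. Groups and mice follow the labels. The study calls the Wt mice littermates of the knockout mice and does not say which mice shared a litter.

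The members, the gene lists and the tests were chosen with earlier results of these data known. All members, and from each list the called genes with the largest differences between Smn1ΔSkm and Wt, at most 6, were named. The 10 genes most like the members within mice were named by r. Homer1, Max and the genes named in the comparison of AFS-treated mice with Wt were chosen after their values were seen. Alternatives were other scalings, no filter, the mean of a gene's probes, myofibers as replicates, slide, mouse number or scan day as a block, and leaving out each mouse. The number of arrays limits the precision.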

Additional observations from a re-analysis of the deposited data

How the results depend on the processing

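With myofibers as replicates limma called 9081 genes between Smn1ΔSkm and Wt instead of 3759, 6941 instead of 1309 between AFS-treated mice and Wt, 28 instead of 0 between AFS-treated and untreated mice, 7 members instead of 3 against Wt and 46 instead of 24 related genes. Slide as a random block left 1890 genes between Smn1ΔSkm and Wt. Between AFS-treated mice and Wt, limma called 764 genes with quantile normalization, 796 with the values of the authors and 2016 with the measured signal and no filter, and normexp left 1 member, Atf3. Leaving out Smn1ΔSkm myofibers 1 to 3, chosen after the data were seen, gave 2138. Leaving out one mouse at a time gave 0 to 7309 genes between Smn1ΔSkm and Wt, 0 to 4817 genes and 0 to 8 members between AFS-treated mice and Wt, and 0 to 43 related genes. The share of calls that were higher in Smn1ΔSkm was 35.9%, against 57.5% when arrays were centred on the probes detected everywhere and 51.1% without a filter. The cause was not tested. Lost calls without a mouse go with fewer samples.

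Between Smn1ΔSkm and Wt, Fos turned to -0.79 and Junb to -0.039 with slide as a random block, and Fos to -0.47 without Smn1ΔSkm myofibers 1 to 3. Leaving out a mouse gave -0.56 to 1.05 for Fos and -0.12 to 1.06 for Junb. Between AFS-treated and untreated mice, Myc turned to -0.059 with quantile normalization, to -0.057 with the authors' values and to -0.016 with arrays centred on the probes detected everywhere. Ier3 turned to 0.071 with the authors' values, to 0.068 without a filter and to 0.30 within scan day 2. Leaving out a mouse gave -0.052 to 0.94 for Jun, -1.48 to 1.65 for Myc, -0.61 to 0.20 for Ier3 and -2.18 to 0.16 for Arc, and -0.15 to 0.66 for Ier3 between AFS-treated mice and Wt. These differences were counted once for each member under each alternative setting. Between Smn1ΔSkm and Wt 8 reversed, 5 moved by at least the spread between mice and 157 did neither. Between AFS-treated and untreated mice 14 reversed and 176 did not. Between AFS-treated mice and Wt 1 reversed, 14 gained a call, 15 lost a call and 140 did none of these.

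The mouse numbers are not stated to pair mice between groups, and mice of equal number correlated in their deviations from the group mean at -0.06 to 0.31. With mouse number as a replicate block limma called 2382 genes between Smn1ΔSkm and Wt, 929 and 4 members between AFS-treated mice and Wt, 0 between AFS-treated and untreated mice, and 25 related genes. In that fit Fos lay at -0.56 and Junb at -0.12 between Smn1ΔSkm and Wt, and Myc at -0.075 between AFS-treated and untreated mice.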

Other observations

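Dixon's test flagged 0 of the 21 sets of values that it covered. These were the 8 Wt and the 7 AFS-treated myofibers, or those of them with a value, and the 10 values of Ier3 in Smn1ΔSkm. The 12 Smn1ΔSkm values of each other member were not covered, among them the Fos value of -0.59. Nothing is therefore said of outliers there.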
